A study of Bubalus bubalis with 12 samples.

Results

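The 6 arrays described here compare 2 histone marks within the sperm of 3 high-fertile water buffalo bulls (Bubalus bubalis), called HF2, HF3 and HF5. They were chosen by HF in the array title, 6 of the 12 arrays of the series, and each bull gave 1 array for histone H3 dimethylated at lysine 4 (H3K4me2) and 1 for histone H3 trimethylated at lysine 27 (H3K27me3). All 6 carry chromatin of cryopreserved semen that was cut with micrococcal nuclease and precipitated with an antibody to 1 mark. The precipitated DNA (Cy5, the ChIP channel) was hybridised together with input DNA of the same bull (Cy3), in the same dye orientation on every array. The other 6 arrays hold the same marks in 3 subfertile bulls (SF1, SF4 and SF5) and serve here only for comparison with the high-fertile bulls. The labels used here give no age or breed, and the assay measures DNA, so the sperm label could not be checked against marker transcripts.

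H3K4me2 is placed by methyltransferases of the Trithorax family and lies at promoters and enhancers of genes that are active or poised. H3K27me3 is placed by Polycomb repressive complex 2 and is known for silenced developmental genes. Most histones of sperm are replaced by protamines, and studies of mouse and human sperm have found both marks on nucleosomes that remain at CpG-rich promoters, at times on the same genes.

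Values are log2(ChIP/input) with the median of each array set to 0, so a value places a gene within an array and gives no absolute amount. A difference is H3K4me2 minus H3K27me3 within a bull, in log2 units, and a gene's value is the mean of its probes, at least 2 of them. The 177372 probes used, of 177440, are 60 bases long; 160659 are annotated to CpG islands, 13403 to promoters and 3310 to coding sequence, and they measured 6805 genes. Probe coordinates refer to the cattle build HGSC Btau_3.1. Median processed ChIP signals were 658 to 742 on the H3K4me2 arrays and 689 to 730 on the H3K27me3 arrays, and 93.9% to 99.95% of probes had a ChIP signal well above background. The probes of a gene often overlap, with 2905 genes covered over at most 200 bases, so probes of 1 gene are not independent measurements. Both arrays of a bull lay on 1 slide, and the H3K4me2 array always lay at the even position beside its H3K27me3 partner, so mark and position on the slide cannot be told apart.

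Probe sequences are shown for the 3 genes of smallest unadjusted p in each direction, so that the bases behind the differences can be read; in PSMB10, ENDOD1, SYNDIG1 and ZNF24 the probes cover at most 146 bases, and in RUNDC3A they cover 677. For each gene the probe of largest mean difference with 1 sign in all 3 bulls is given, read 5′ to 3′ along the plus strand of HGSC Btau_3.1, with CpG dinucleotides in capitals. The first 3 were higher in H3K4me2, and the other 3 were lower. The PSMB10 probe is annotated to coding sequence at chr18:34441715-34441774, and the other 5 are annotated to CpG islands: ENDOD1 at chr15:13573600-13573659, SYNDIG1 at chr13:42608418-42608477, ZNF24 at chr24:22811441-22811500, RUNDC3A at chr19:45534320-45534379 and ADCYAP1R1 at chr4:67945191-67945250.
PSMB10: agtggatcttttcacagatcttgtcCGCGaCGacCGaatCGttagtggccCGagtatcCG
ENDOD1: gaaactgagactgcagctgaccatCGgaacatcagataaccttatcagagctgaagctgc
SYNDIG1: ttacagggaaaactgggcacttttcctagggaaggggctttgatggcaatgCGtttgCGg
ZNF24: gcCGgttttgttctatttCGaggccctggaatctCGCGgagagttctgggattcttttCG
RUNDC3A: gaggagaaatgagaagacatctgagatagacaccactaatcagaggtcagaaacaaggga
ADCYAP1R1: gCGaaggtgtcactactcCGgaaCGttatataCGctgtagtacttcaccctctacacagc
The CpG count of these probes ranged widely, with 7 in the PSMB10 probe and 0 in the RUNDC3A probe, which also had the largest mean difference of the 6, -3.38. In that probe HF2 had a difference of -1.70, HF3 one of -3.71 and HF5 one of -4.73. The PSMB10 probe had differences of 1.38, 2.23 and 1.79 in the same order of bulls.

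Within each bull, the ChIP channels of the H3K4me2 and the H3K27me3 array differed with a wider spread over genes than their input channels. On the ChIP channel alone, the SD of the difference over the 6805 genes was 0.46 in HF2, 0.64 in HF3 and 1.02 in HF5. The input channel, which held DNA of the same bull on both arrays, gave SDs of 0.078, 0.21 and 0.15. The input covers labelling and hybridisation only, and each mark was precipitated once per bull here, so within a bull the marks and the spread between precipitations cannot be told apart. The ChIP spread was 5.93, 3.1 and 6.74 times the input spread in the same order. The log2 ratio was higher in H3K4me2 by at least 1 unit in 133 genes of HF2 (1.95%), 363 of HF3 (5.33%) and 750 of HF5 (11%). It was lower by at least 1 unit in 119 (1.75%), 236 (3.47%) and 743 (10.9%) genes. The input differed by that much in 1, 43 and 16 genes. Over genes, the ChIP signals of both marks still correlated within a bull at a Pearson r of 0.88, 0.82 and 0.77, against 0.997, 0.989 and 0.990 for the inputs. HF5, whose ChIP signal was well above background at 93.9% of probes for H3K4me2 and 97.1% for H3K27me3, had the widest difference, and the part of signal strength in it was not tested.

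**Figure D1:**
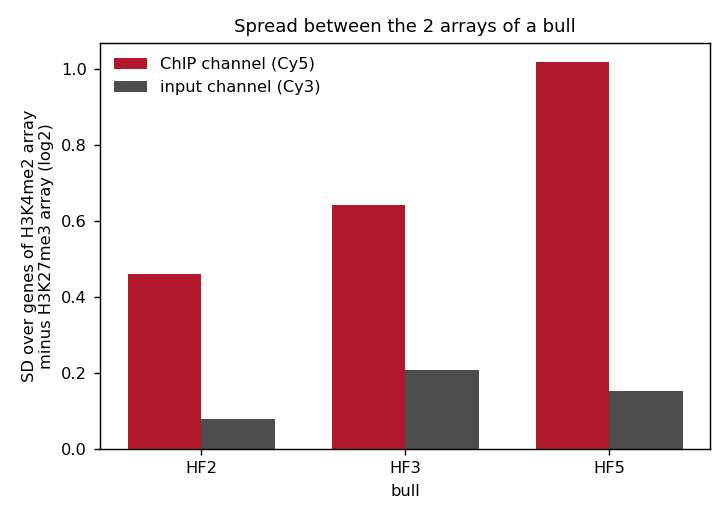
SD over 6805 genes of the difference between the H3K4me2 and the H3K27me3 array of a bull (log2, vertical axis), for the ChIP channel (red) and the input channel (grey) of each high-fertile bull. The ChIP bars reach 0.46, 0.64 and 1.02, and the input bars stay at or below 0.21.

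The difference between the marks was shared by neighbouring probes that have no base in common. For pairs of probes less than 100 bases apart (35802 pairs), the ChIP channel difference of one probe correlated with that of the other at r = 0.51 in HF2, 0.42 in HF3 and 0.35 in HF5. From 100 to under 200 bases r was 0.19, 0.15 and 0.11, and from 200 to under 400 bases it was 0.072, 0.052 and 0.041. Beyond 400 bases r stayed between -0.032 and 0.047 in all 3 bulls. The input difference of the same pairs reached at most 0.063. These correlations run over probe pairs of 1 bull, which share the array and, in part, base composition (r of G and C content 0.29 below 100 bases and 0.14 at 1000 to 2000 bases), and they are given as a description.

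**Figure D2:**
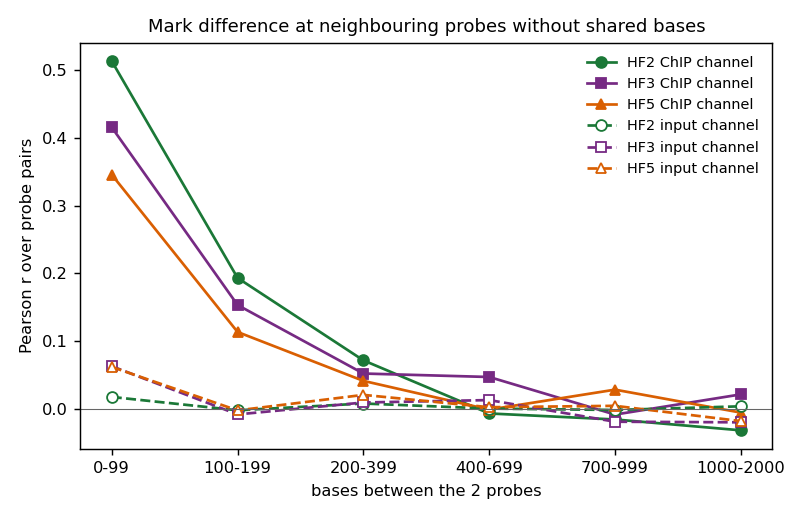
Pearson r of the difference between the marks at pairs of probes without shared bases (vertical axis), by the number of bases between them (horizontal axis), for the ChIP channel (solid lines) and the input channel (dashed lines) of each high-fertile bull. The ChIP channel starts at 0.35 to 0.51 and falls to 0.072 or less from 200 bases on, and the input channel stays near 0 throughout.

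The same difference was not shared by different bulls. Over the 6805 genes the difference between the marks correlated between bulls at r = 0.032 for HF2 and HF3, -0.0077 for HF2 and HF5, and -0.017 for HF3 and HF5. On the ChIP channel alone these values were 0.024, -0.00038 and -0.012. In 1714 genes (25.2%) the difference had 1 sign in all 3 bulls: 1049 genes (15.4%) were higher in H3K4me2 and 665 (9.77%) were lower. A mean difference above 0 was found in 3782 genes (55.6%) and one below 0 in 3023 (44.4%), and the median gene stood at -0.0086 in HF2, 0.042 in HF3 and 0.13 in HF5. The 3 H3K4me2 values lay wholly above or below the 3 H3K27me3 values in 177 genes (2.6%), 103 (1.51%) above and 74 (1.09%) below. A difference of at least 0.5 in every bull was found in 69 genes (1.01%) higher and 45 (0.661%) lower in H3K4me2, and one of at least 1 in 2 (0.0294%) and 4 (0.0588%). The 2 were PSMB10 and SYNDIG1, and the 4 were RUNDC3A, GAPVD1, CARD14 and PIPOX, the last 3 with 2 probes each.

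Tested with limma with the bull as a block, 0 of 6805 genes (0%) differed between H3K4me2 and H3K27me3 at an adjusted p of 0.05, and 243 (3.57%) had an unadjusted p below 0.05. Of those 243, 147 (2.16%) were higher in H3K4me2 and 96 (1.41%) were lower, and the lowest adjusted p was 0.941. The ChIP channels compared directly gave 0 calls as well, with 253 genes (3.72%) at an unadjusted p below 0.05. So did the 176412 probes with values on all 6 arrays (5401, 3.06%, at an unadjusted p below 0.05), the 10353 regions of at least 4 neighbouring probes (349, 3.37%) and, as the control, the input channel (179, 2.63%). The 95% confidence interval of the median gene reached 0.69 to either side of its difference, and 3 bulls limit the precision to that. This interval is not adjusted for the number of genes, so a larger difference could also go uncalled. Without the block, the same test gave 0 calls and 35 genes at an unadjusted p below 0.05.

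The genes described next are therefore those with the smallest unadjusted p and 1 sign in all 3 bulls, 10 in each direction, and in limma's test all 20 had an adjusted p of 0.941. The genes higher in H3K4me2 were of mixed function. PSMB10, the inducible catalytic proteasome subunit of antigen processing, had H3K4me2 values of 0.28 in HF2, 1.87 in HF3 and -0.60 in HF5, against H3K27me3 values of -1.16, -0.43 and -2.24. H3K4me2 was the higher mark in each bull, but the marks overlapped between bulls. The mean difference was 1.79 (95% confidence interval 1.10 to 2.48, unadjusted p = 0.00097), and the input of HF3 also differed between its arrays, by 0.75. All 3 probes of PSMB10 lie within 66 bases of chromosome 18.

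SYNDIG1, which encodes a protein of excitatory synapse development, was the other gene with a difference of at least 1 in every bull. Its H3K4me2 values were 0.92, 0.89 and 0.20 in HF2, HF3 and HF5, against H3K27me3 values of -0.32, -1.16 and -0.84, and the marks did not overlap. The mean difference was 1.44 (0.71 to 2.18), and each of its 13 CpG island probes on chromosome 13 had that sign in all 3 bulls. ENDOD1, a gene of an endonuclease-domain protein, had H3K4me2 values of 1.25, 2.11 and 1.34, against H3K27me3 values of 0.37, 0.28 and -0.75. The marks did not overlap there either, and the mean difference was 1.60 (0.80 to 2.39).

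Among the other 7, CEP19, a centrosomal protein gene of cilium formation, had H3K4me2 values of -0.47, 0.04 and -0.11, against H3K27me3 values of -1.24, -1.29 and -1.68. EPHA3, an ephrin receptor kinase gene, had H3K4me2 values of 0.07, 1.17 and 0.76, against H3K27me3 values of -1.22, -0.41 and 0.0035. The marks did not overlap in either gene. CEP19 had low H3K27me3, at most -1.24 in every bull. EPHA3 had H3K4me2 above the array median in every bull, but only by 0.07 in HF2, where its H3K27me3 was low at -1.22. The mean difference of EPHA3 was 1.21, and 0.75 with normexp background correction. OXA1L, the inner-membrane insertase of mitochondria, had the largest difference of the 7 at 1.47: H3K4me2 stood at 0.65, -0.98 and -2.06, against -1.34, -2.72 and -2.73 for H3K27me3, so both marks were lower in HF3 and HF5 than in HF2. COX14, an assembly factor of cytochrome c oxidase, and MCEE, an enzyme of mitochondrial propionate metabolism, had mean differences of 1.12 and 0.97. CD44, the hyaluronan receptor, and NOLC1, a nucleolar phosphoprotein, had mean differences of 1.18 and 1.06, with differences per bull between 0.88 and 1.32. In these 4 genes the marks overlapped between bulls.

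**Figure D3:**
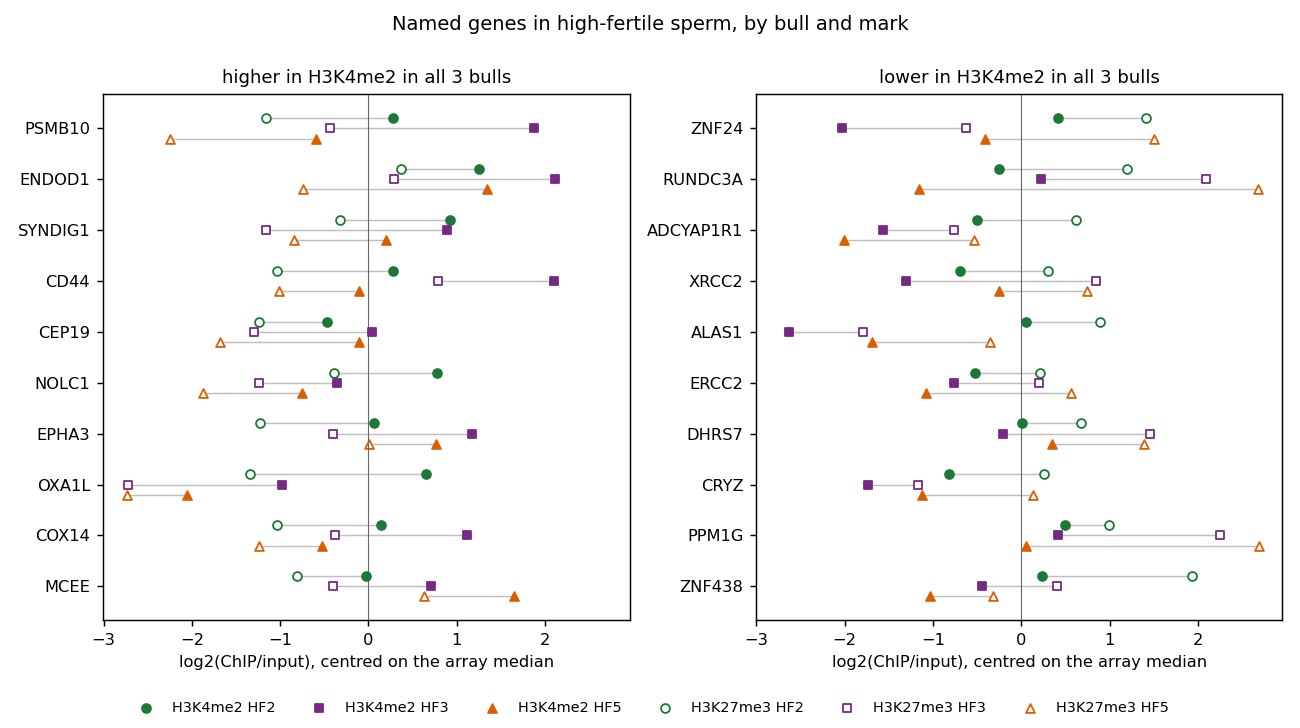
Log2(ChIP/input) of the 20 named genes (horizontal axis), for H3K4me2 (filled) and H3K27me3 (open) in each high-fertile bull, with a grey line joining both marks of a bull. PSMB10 and SYNDIG1 (left) and RUNDC3A (right) show a gap of at least 1 in every bull, and for several genes, such as ALAS1, the bulls lie further apart than the marks.

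Genes lower in H3K4me2 included RUNDC3A, which encodes a RUN-domain protein found mainly in neurons and had the largest difference of the 20. Its H3K4me2 values were -0.25, 0.22 and -1.16 in HF2, HF3 and HF5, against H3K27me3 values of 1.19, 2.08 and 2.68. H3K27me3 was above every H3K4me2 value, and it was one of 7 genes with an H3K27me3 ratio of at least 1 in all 3 bulls. The mean difference was -2.38 (95% confidence interval -3.65 to -1.12, unadjusted p = 0.0043), and 12 of its 14 probes, which cover 677 bases on chromosome 19, had that sign in every bull. The input signal of RUNDC3A was low, 1.88 log2 units below the median probe on average over the 6 arrays, and its part in the ratio was not tested. The ChIP signal of RUNDC3A averaged -1.03 on that scale. On the same scale the input averaged -2.28 in DHRS7, -1.73 in XRCC2, -1.64 in CD44 and -1.62 in EPHA3. It was -1.06 in PPM1G and -1.02 in ZNF438, and in the other named genes it ran from -0.73 (ZNF24) to 0.54 (ADCYAP1R1).

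ZNF24, a zinc finger transcription factor gene, had H3K4me2 values of 0.42, -2.03 and -0.41, against H3K27me3 values of 1.41, -0.63 and 1.5. The difference was -0.99, -1.40 and -1.91 in the 3 bulls, but the marks overlapped because HF3 was low for both. ADCYAP1R1, the receptor of the neuropeptide PACAP, stood at -0.51, -1.56 and -2.01 for H3K4me2, against 0.62, -0.76 and -0.54 for H3K27me3, with overlap and a mean difference of -1.13. PPM1G, a nuclear protein phosphatase gene, had H3K4me2 values of 0.49, 0.41 and 0.05, against H3K27me3 values of 0.99, 2.25 and 2.68, without overlap.

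XRCC2, a gene of homologous recombination, had H3K4me2 values of -0.70, -1.30 and -0.26, against H3K27me3 values of 0.30, 0.85 and 0.75. ERCC2, the helicase of nucleotide excision repair and transcription factor IIH, had H3K4me2 values of -0.53, -0.77 and -1.08, against H3K27me3 values of 0.21, 0.20 and 0.57. The marks did not overlap in either gene. In ERCC2, however, 3 of 7 probes had that sign in every bull, and the mean difference of -1.12 was -0.43 with the median of its probes. DHRS7, a short-chain dehydrogenase gene with 3 probes, also showed no overlap, with a mean difference of -1.13 that was -0.70 over probes well above background on all 6 arrays, and its input averaged -2.28 relative to the median probe (log2). ALAS1, the first enzyme of haem synthesis, CRYZ, a quinone reductase gene, and ZNF438, a zinc finger gene, had mean differences of -1.0, -0.96 and -1.09 with overlap of the marks. In all, 9 of the 20 named genes showed no overlap, 4 higher and 5 lower, beside 177 of all 6805 genes (2.6%). The 20 genes were chosen for small p and 1 sign, so that count is a description.

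Of the 10353 regions, 1590 (15.4%) were higher in H3K4me2 in all 3 bulls and 894 (8.64%) were lower. The 3 regions of smallest unadjusted p in each direction were the ENDOD1 and ZNF24 stretches already described and 4 CpG island regions that the array annotates to no gene. Of those 4, the region at chr17:63441403-63441561 had 24 probes with H3K4me2 values of -0.45, 2.60 and 0.05 in HF2, HF3 and HF5, against -1.92, 1.58 and -1.25 for H3K27me3. The region at chr10:78657984-78658093 had a mean difference of 1.21. The region at chr10:87018497-87018572 had the widest gap, with H3K4me2 at 0.93, -1.92 and -2.25, against 2.15, 0.53 and -0.37 for H3K27me3, a mean difference of -1.85. The region at chr11:109606393-109606469 had a mean difference of -1.32. In all 4 the bulls lay further apart within a mark than the marks lay within HF2, so the marks overlapped, and the limma adjusted p was 0.964 in each.

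Few genes carried a high ratio of either mark in every bull. An H3K4me2 ratio of at least 1 in all 3 bulls was found in 6 of 6805 genes (0.0882%), an H3K27me3 ratio of at least 1 in 7 (0.103%), and both in 0 (0%). These counts depend on the processing: other normalizations, background correction or the median of probes gave 3 to 14 for a single mark. Leaving out 1 bull gave 24 to 90, 27 to 101 and 1 to 19 genes. That asks for the ratio in fewer bulls, so those counts could not fall. The genes that follow were picked for these values, after the values were seen. The 6 for H3K4me2 were ENDOD1, EML5 (a microtubule-binding protein), NPM3 (a nucleoplasmin), EPC2 (a subunit of a histone acetyltransferase complex), TXNDC5 (a disulphide isomerase) and TSPYL1 (a nucleosome assembly family protein). EPC2 had H3K4me2 values of 2.05, 1.64 and 2.21 in HF2, HF3 and HF5, against H3K27me3 values of 1.64, 0.95 and -3.06. NPM3 had H3K4me2 values of 1.29, 1.84 and 3.45, against H3K27me3 values of 1.46, 1.69 and -1.25. In both genes the marks differed by less than 0.7 in HF2 and HF3 and by far more in HF5. The gap of 5.27 for EPC2 was the largest in HF5 among genes with at least 3 probes.

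The 7 genes for H3K27me3 were RUNDC3A, CETN1 (a centrin of the centrosome with expression mainly in testis), DNPEP (an aminopeptidase), LRRC20 (a leucine-rich repeat protein), DHX40 (a helicase), ANTXR1 (an anthrax toxin receptor) and TMPPE (a predicted phosphoesterase). CETN1 had H3K4me2 values of 1.96, 0.65 and -0.82, against H3K27me3 values of 1.79, 1.10 and 2.06. LRRC20 had H3K4me2 values of 0.75, 0.86 and 0.57, against H3K27me3 values of 1.53, 2.03 and 1.17, and DNPEP had 0.61, 1.13 and 1.60, against 1.31, 2.10 and 2.08. In LRRC20 and DNPEP the H3K4me2 ratio was thus also above the median of the array in every bull. The input of EML5, NPM3, EPC2, LRRC20, CETN1 and ANTXR1 lay at least 2.02 log2 units below the median probe on average over the 6 arrays, while that of TXNDC5 and TMPPE lay 0.10 and 0.16 above it. The ChIP signal of EML5, NPM3, EPC2, LRRC20, CETN1 and ANTXR1 averaged -0.56, -0.62, -1.23, -0.81, -1.08 and -1.33 on the same scale. It averaged -0.83 in DHX40 and -1.03 in RUNDC3A, so it too was below the median probe. In ENDOD1, DNPEP and TSPYL1 it was 0.15, 0.12 and 0.06, and in TXNDC5 and TMPPE 0.99 and 1.11. The part of low input in these ratios was not tested. Ratios of at most -1 in all 3 bulls were found in 4 genes (0.0588%) for H3K4me2 and 9 (0.132%) for H3K27me3, CEP19 and OXA1L among the 9, and in 0 for both.

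The median difference between the marks was higher at probes with 5 or more CpG dinucleotides than at probes with 0, by little in HF2 and most in HF5. Over single probes the relation was weak, with r of CpG count and difference at 0.021, 0.053 and 0.053 in HF2, HF3 and HF5. At the 20697 probes with 5 or more CpG the median difference was 0.0013 in HF2, 0.081 in HF3 and 0.34 in HF5. At the 11557 probes with 0 CpG it was -0.028, -0.084 and 0.0040. At 1 to 2 CpG it was -0.0094, -0.011 and 0.089, and at 3 to 4 CpG 0.0095, 0.031 and 0.19, so HF2 did not rise at the last step. The CpG-rich probes thus stood above the CpG-free ones in each bull, by 0.030, 0.17 and 0.34, a mean of 0.18 ± 0.15 (SD, n = 3). An exact sign-flip permutation test over the 3 bulls gave p = 0.25 (two-sided), the smallest it can give. On the ChIP channel alone the contrasts were 0.037, 0.16 and 0.33, and the input channel gave 0.0018, -0.012 and 0.0094. Among probes of 48.3% to 51.7% G and C only (8662 with 5 or more CpG and 3186 with 0), the contrasts were 0.022, 0.20 and 0.33. This relation was noticed in the data and was not among the planned comparisons.

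In HF2 and HF5 both marks were higher at CpG-rich probes. In HF2 the median H3K4me2 ratio was 0.034 at CpG-rich and -0.12 at CpG-free probes, and the median H3K27me3 ratio was 0.010 and -0.084. In HF5 the median H3K4me2 ratio was 0.26 at CpG-rich and -0.37 at CpG-free probes, and the median H3K27me3 ratio was 0.14 and -0.19. In HF3 the H3K4me2 medians were 0.0054 and 0.10, and the H3K27me3 medians were -0.076 and 0.20, so CpG-free probes were the higher ones for both marks. G and C content also moved with the difference in HF5, with the CpG count not held fixed. The HF5 median was 0.27 at probes of at least 58.3% G and C and 0.060 at probes of at most 41.7%. In HF2 (-0.0052 and -0.043) and HF3 (0.0085 and 0.022) these medians lay no more than 0.038 apart. CpG island, promoter and coding probes had median differences of 0.058 ± 0.089, 0.030 ± 0.067 and 0.061 ± 0.087 (SD, n = 3). Promoter probes stood below CpG island probes in each bull, at -0.024, 0.0091 and 0.10 against 0.00018, 0.013 and 0.16 in HF2, HF3 and HF5, and this was not tested.

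**Figure D4:**
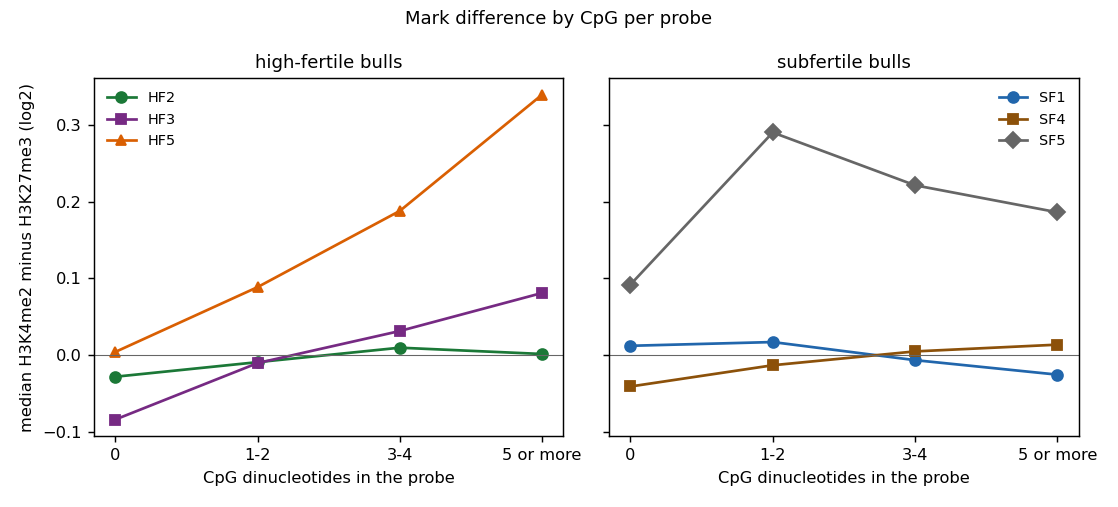
Median difference H3K4me2 minus H3K27me3 (log2, vertical axis) by the number of CpG dinucleotides in the 60-base probe (horizontal axis), for each high-fertile bull (left) and each subfertile bull (right). From 0 to 5 or more CpG the median is higher by 0.030, 0.17 and 0.34 in HF2, HF3 and HF5, and by -0.038, 0.055 and 0.094 in SF1, SF4 and SF5.

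In the subfertile bulls the CpG contrast was -0.038 in SF1, 0.055 in SF4 and 0.094 in SF5. The means of the high-fertile and the subfertile bulls were 0.18 and 0.037. An exact two-sided permutation test over the 20 splits of the 6 bulls gave p = 0.3, and since the smallest p it can give is 0.1, it could not have passed 0.05. At 48.3% to 51.7% G and C the subfertile contrasts were -0.056, 0.092 and -0.35.

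The HOX genes, which Polycomb is known to silence during development, lay on both sides of 0. Of 21 HOX cluster genes measured, 11 had a mean difference above 0 and 10 below, with a median of 0.0020 beside 0.040 for all genes, and 0 passed the test. The list medians were -0.073, -0.14 and 0.077 in HF2, HF3 and HF5, each below the median of all genes in that bull (-0.0086, 0.042 and 0.13). HOXB3 was higher in H3K4me2 in all 3 bulls, and HOXC12 and HOXA9 were lower in all 3. HOXC12, with 27 probes, had H3K4me2 values of -0.32, -0.31 and 0.26, against H3K27me3 values of 0.27, 0.44 and 0.39, a mean difference of -0.49. HOXA9, with 143 probes, had differences of -0.27, -0.14 and -0.42. HOXD4 had the largest mean difference of the list, 1.45, and owed it to HF5: H3K4me2 was 0.32, 2.04 and 2.42, against -0.59, 2.20 and -1.18 for H3K27me3.

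**Figure D5:**
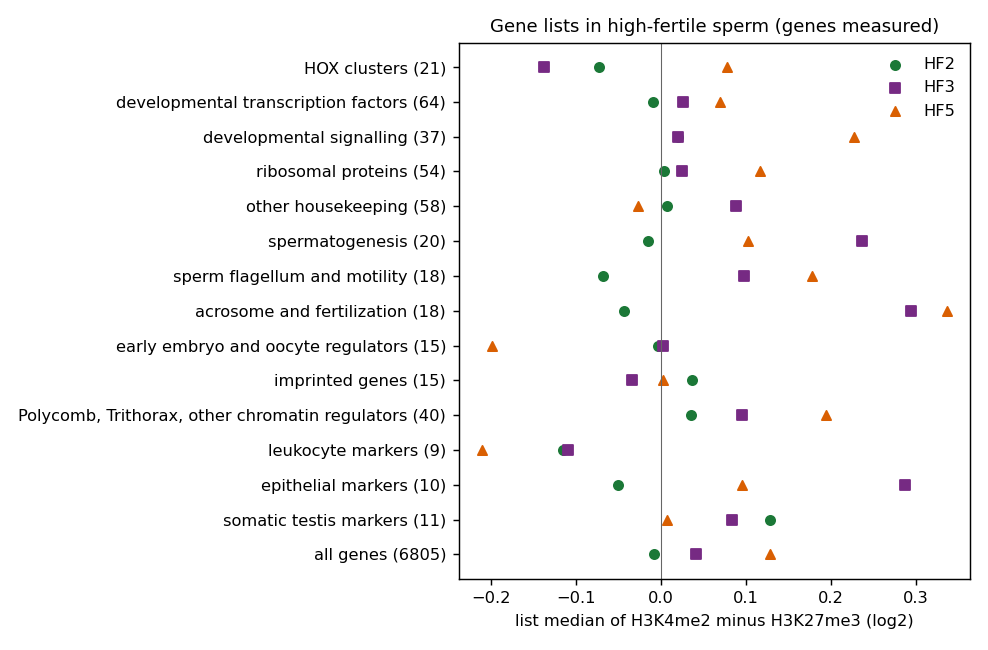
Median over each gene list of the difference H3K4me2 minus H3K27me3 (log2, horizontal axis) in HF2, HF3 and HF5, with the number of genes measured in brackets. The 9 leukocyte markers lie below 0 in all 3 bulls. Developmental signalling genes, ribosomal proteins, chromatin regulators and somatic testis markers lie above 0 in all 3, and the other lists straddle 0. Medians of all genes are -0.0086, 0.042 and 0.13 in HF2, HF3 and HF5. Of the lists above 0, only the chromatin regulators exceed them in every bull.

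Developmental transcription factors were split evenly, with 32 genes above 0 and 32 below (median -0.00067). FOXL2, the ovary-determining factor, had the smallest p of that list: its 36 probes gave H3K4me2 values of -0.46, -2.35 and -0.28, against H3K27me3 values of 0.19, -1.57 and 0.75, a difference of -0.82. TBX20, a cardiac factor, differed by -0.69. Among developmental signalling genes 23 were above 0 and 14 below (median 0.060), and the members of smallest p were GREM1, a BMP antagonist (0.75), and WNT3, a WNT ligand (0.59). Of 40 Polycomb, Trithorax and other chromatin regulators, 26 were above 0 and 14 below (median 0.095), with list medians of 0.035, 0.096 and 0.19 in HF2, HF3 and HF5. RBBP5, a core subunit of the H3K4 methyltransferase complexes, had H3K4me2 values of 0.32, -0.90 and -0.79, against H3K27me3 values of -0.53, -1.67 and -1.40, and MTF2, an accessory subunit of Polycomb repressive complex 2, differed by -0.69. All genes together had a share of 55.6% above 0.

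Germ cell lists held genes on both sides, and none of their members passed the test. Spermatogenesis genes (12 above 0 and 8 below, median 0.067) included HORMAD1, a meiotic chromosome axis gene, at a difference of -0.39. Flagellum genes (11 and 7, median 0.014) had their smallest p in ODF1, an outer dense fibre protein, with H3K4me2 values of 0.60, 0.01 and 0.51, against H3K27me3 values of 0.14, -0.52 and -0.06, and in GAS8, a dynein regulatory complex subunit, at 0.40. Acrosome and fertilization genes (12 and 6) had a median of 0.12, with list medians of -0.043 in HF2, 0.29 in HF3 and 0.34 in HF5, and ZPBP and SPAM1, a zona binding protein and a sperm hyaluronidase, differed by 0.40 and 0.36. TNP1, a transition protein and the only measured member of its list, with 2 probes, had H3K4me2 values of -0.64, -0.46 and 0.26, against H3K27me3 values of -0.46, -0.13 and -0.71. Its difference was below 0 in HF2 and HF3 and 0.97 in HF5.

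Early embryo and oocyte regulators (7 above 0 and 8 below, median -0.0078) and imprinted genes (9 and 6, median 0.032) had medians near that of all genes. ZAR1L, an oocyte gene, differed by -0.50 and PRDM14, a pluripotency and germ cell factor, by 0.33. Among imprinted genes UBE3A, a ubiquitin ligase gene, had differences of 0.56, 0.54 and 1.19, and IGF2, the growth factor, had -1.02, -0.97 and 0.08. Ribosomal protein genes (29 and 25) had a median of 0.074, and their members of smallest p, RPL27A and RPL14, had H3K4me2 values of -2.13 and -2.12 in HF3 against 1.80 and 3.58 in HF5, wide apart between bulls. Other housekeeping genes (25 above 0 and 33 below, median -0.019) had PSMA2, a proteasome subunit, at -0.84 and POLR2G, an RNA polymerase II subunit, at 0.76.

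Markers of other cells that semen can hold were described in the same way. Of 9 leukocyte markers measured, 1 had a mean difference above 0 and 8 below, with a median of -0.27 (list medians -0.11, -0.11 and -0.21 in HF2, HF3 and HF5). Of all genes, 44.4% had a mean difference below 0, and 9.77% were below 0 in every bull. In SF1, SF4 and SF5 the leukocyte list medians were 0.073, 0.018 and -0.35. The 9 leukocyte markers ranged from -0.60 to 0.20, and 3 of them had a difference below 0 in every bull. These were CD79A, the B cell receptor chain (8 probes), CXCR2, a neutrophil chemokine receptor (3 probes), and SPI1, a myeloid transcription factor (2 probes). CD79A had H3K4me2 values of -0.28, 1.11 and -2.18, against H3K27me3 values of 0.34, 1.23 and -1.12. Epithelial markers had 6 above 0 and 4 below, and those of smallest p were CDH1 (0.68) and CLDN7 (0.65), genes of cell adhesion. Somatic testis markers had 6 and 5, with ACTA2, smooth muscle actin, at 1.18 and HSD3B1, a steroidogenic enzyme, at -0.99, both set mostly by HF5. Of all list members, 0 passed limma's test at an adjusted p of 0.05. Whether other cells in the semen had a part in any difference was not tested.

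Over all genes, the difference between the marks was not shared between the high-fertile and the subfertile bulls. It was not shared among the high-fertile bulls either, where r between pairs of bulls ran from -0.017 to 0.032. The mean difference between the marks in high-fertile bulls correlated over genes with that in subfertile bulls at r = -0.0064, and 3468 of 6805 genes (51.0%) had the same sign. Of the 20 named genes, 13 had the same sign in the mean of the subfertile bulls. PSMB10, SYNDIG1, ALAS1 and CRYZ kept that sign in each of SF1, SF4 and SF5, 4 of 20 beside 887 of all 6805 genes. PSMB10 had differences of 0.48, 2.00 and 1.94 there (unadjusted p = 0.0038, limma adjusted p = 0.884 over all genes), and ALAS1 had -0.13, -1.77 and -2.05 (unadjusted p = 0.0095). SYNDIG1 had 0.82, 0.23 and 1.58.

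RUNDC3A and EPHA3 had the opposite sign in every subfertile bull, 2 of 20 beside 831 of all 6805 genes. RUNDC3A stood at -1.44, -1.87 and -3.83 in HF2, HF3 and HF5, against 0.99, 1.53 and 0.70 in SF1, SF4 and SF5. The difference between the groups was -3.45 (unadjusted p = 0.00068, limma adjusted p = 0.959). EPHA3 stood at 1.29, 1.58 and 0.76, against -0.03, -1.81 and -0.24. Over all 6805 genes, limma's test of the high-fertile difference minus the subfertile one called 0 genes (0%), with 246 (3.61%) at an unadjusted p below 0.05.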

How the data were processed

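The members and gene lists were chosen with earlier results of these data known. Per the file headers, the deposited scanner files hold, for each spot and colour, processed intensity made with Agilent Feature Extraction 10.7.3.1 (10.7 per the submitters' processing notes), background-subtracted, spatially detrended and dye-normalized by a linear factor within each array, and 0 or 1 quality flags. The authors' deposited value table gives log2 values of ChIP over input, a scale and direction read from their correlation with the scanner ratios of the HF arrays (r 0.83 to 0.995); its column medians for HF2, HF3 and HF5 were 0, 0.10 and -0.11 for H3K4me2 and -0.01, 0.09 and -0.07 for H3K27me3, so its centring is not settled. It served as an alternative.

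Values were log2 of processed Cy5 over processed Cy3 at non-control probes flagged in the input as well above background in 6 or more of the 12 arrays (177372 of 177440), with outlier spots (13 to 546 per HF array) set missing and saturated spots kept, centred on each array's median. Regions joined kept probes at most 500 bases apart. Linear models were fitted by limma 3.58.1 (R 4.3.3), with eBayes moderation, two-sided p-values and a Benjamini-Hochberg threshold of 0.05, with the bull as a block because both arrays of a number come from 1 animal; their inputs, as deviations from the 12-array mean, correlated at r of 0.985, 0.963 and 0.937, and those of different bulls at -0.41 to -0.096. The difference of HF and SF bulls, and the limma p-values of the SF bulls, came from a fit on all 12 arrays. The fit was also run on simulated gene values, with normal noise of the same spread in every bull. The SD of the ratio difference over genes was 0.44, 0.58 and 0.96 in HF2, HF3 and HF5, so that run does not cover unequal spread.

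Named genes were, per direction, the 10 largest called differences with 1 sign in all 3 bulls, filled by smallest unadjusted p, with at least 3 probes on 1 chromosome; in each list the 2 members of smallest p; and TNP1 and HOX genes in any case; some genes the rule names are not reported here. Gene names are those of the array, of which 5788 of 6805 matched the buffalo RefSeq table by symbol. Probe strand was read from 130895 pairs of overlapping probes, 130873 of which ran along increasing coordinates. Alternatives covered background correction, normalization, the deposited table, base composition, filters, probe summaries, region gaps, the block and leaving out each bull. Each mark in each bull has 1 array, and p-values measure the spread between 3 bulls.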

Additional observations from a re-analysis of the deposited data

How the results depend on the processing

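In limma's fits over genes, probes, regions, the ChIP channel, the input channel and the difference of the HF and SF bulls, 0 features were called under every alternative run, 12 to 18 settings per fit. The lowest adjusted p over alternatives was 0.908 for genes, 0.910 for probes, 0.809 for regions, 0.810 for the ChIP channel, 0.885 for the input and 0.171 for HF against SF. Without the replicate block, which ignores the pairing, genes at an unadjusted p below 0.05 numbered 35 and regions 43; without HF5, genes numbered 366. The 20 named genes, 10 in each direction, kept their sign under every alternative that gave a value. They were chosen for 1 sign in all 3 bulls, so leaving out a bull or the block could not have turned it. Genes with a ratio of at least 1 in all 3 bulls numbered, for H3K4me2, 3 with within-array loess and 10 with quantile normalization, and for H3K27me3, 3 with normexp, 14 with quantile normalization and 12 with the median of probes. On the ChIP channel alone, a level and not a ratio, they numbered 665, 623 and 527 for H3K4me2, H3K27me3 and both. With 1 bull left out, genes with that ratio in the remaining bulls numbered 24 to 90, 27 to 101 and 1 to 19. That asks for fewer bulls, so those counts could not fall. The CpG contrast, added after seeing the data, was 0.097 without HF5. Among TNP1 and the HOX genes, none of them called, signs turned as follows, and the cause was not tested. Loess gave TNP1 -0.069, HOXA10 -0.0048 and HOXA2 -0.12, and the deposited table gave -0.028, -0.0082 and -0.078. Normexp gave HOXC4 -0.023 and HOXA2 -0.026. HOXA2 was -0.063 on the ChIP channel and -0.0097 after adjustment for G and C content. Quantile normalization gave HOXA3 -0.036, HOXC4 -0.12 and HOXA5 -0.057. Probes well above background on all 6 HF arrays gave HOXC13 -0.32, HOXD11 0.091, HOXC4 -0.0094 and HOXA2 -0.0071. The median of probes gave HOXB3 -0.012, HOXB2 -0.00064, HOXA3 -0.028, HOXC11 0.13, HOXC4 -0.25, HOXA5 -0.052 and HOXA2 -0.037. Leaving out 1 bull, ranges were -0.26 to 0.39 for TNP1, -0.55 to 0.014 for HOXB1, -0.36 to 0.070 for HOXD10, -0.011 to 0.32 for HOXC13, -0.093 to 0.45 for HOXA4, -0.15 to 0.27 for HOXA10, -0.19 to 0.063 for HOXB9, -0.096 to 0.26 for HOXA3, -0.21 to 0.13 for HOXC11, -0.32 to 0.081 for HOXD11, -0.39 to 0.35 for HOXB7, -0.40 to 0.32 for HOXC4, -0.17 to 0.17 for HOXA5 and -0.13 to 0.19 for HOXA2. With 3 bulls, the 95% confidence interval of the median gene, not adjusted for the number of genes, reached 0.69 to either side. Smaller differences could not be told from 0 there. Larger ones could also go uncalled: PSMB10, at 1.79, had a limma adjusted p of 0.941.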
